A study of Mus musculus with 12 samples.

Results

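In mouse liver, 10 genes of the neutrophil were followed: Mpo, Prtn3 and Ctsg, whose proteins are packed into azurophil granules early in neutrophil development, Ngp, Camp and Ltf of the later specific granules, and S100a8, S100a9, Retnlg and Csf3r of the mature cell. The 10 were picked by gene name among 31870 genes with a probe on the array, and all 10 were among the 19556 genes tested. Livers came from mice that lack Habp2, the gene of a plasma protease called factor VII-activating protease (FSAP), and from their wild-type (WT) littermates. In each genotype 3 mice had bile duct ligation (BDL), an operation that dams bile within the liver and is used to induce scarring, and 3 had a sham operation.

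All 12 mice descended from heterozygous crosses on a BALB/c background reached by backcrossing up to the F3 generation, so that part of the genome could still vary between littermates. They were 20 to 30 weeks old, and liver was frozen 2 weeks after surgery. Each liver gave 1 Agilent one-colour array from 100 ng of RNA with an integrity number of at least 7.2. The 4 groups are WT sham, WT BDL, FSAP-deficient sham and FSAP-deficient BDL. The labels number the mice within each group but name neither their sex nor the deleted part of Habp2.

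Neutrophils are made in the bone marrow and build their granules in sequence. Azurophil granule genes are transcribed in promyelocytes, specific granule genes in myelocytes and metamyelocytes, and both are largely shut off before the cell is released into blood. The calprotectin genes S100a8 and S100a9 stay abundant in the circulating cell, which enters injured liver along chemokine gradients. In whole liver, more cells of a type and more RNA per cell cannot be told apart.

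The probes that carry the results were read from the deposited files. Those of 4 genes are shown 5′ to 3′, since Prtn3, S100a8 and Ltf rose with BDL in at least 1 genotype and Ngp did not pass the test in either. No run of 15 bases of the S100a8 or Ltf probe was found on a probe of another gene. The Prtn3 probe shared such a run with 1 probe of another gene and the Ngp probe with 2.
Prtn3 probe: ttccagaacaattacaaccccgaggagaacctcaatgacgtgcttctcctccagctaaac
S100a8 probe: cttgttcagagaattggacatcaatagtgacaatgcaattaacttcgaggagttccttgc
Ltf probe: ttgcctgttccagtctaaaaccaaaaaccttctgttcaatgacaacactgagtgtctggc
Ngp probe: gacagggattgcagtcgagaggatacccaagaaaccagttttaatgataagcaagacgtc

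On mm9, the build of the files, the Prtn3 probe lies at chr10:79343869-79344685 on the plus strand. Its 60 bases spread over 817 bases of genome, so it crosses a splice junction, and the Ngp probe at chr9:110324266-110324814 spreads over 549 bases. The S100a8 probe lies at chr3:90473778-90473837 and the Ltf probe at chr9:110942873-110942932. The exon or untranslated region under each probe was not looked up here.

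The single Csf3r probe, at chr4:125721478-125721537, needs care. Its last 30 bases, shown here because they decide how its values can be read, stand letter for letter at the end of the probe for Gm13241, another gene.
Csf3r and Gm13241 probes, bases 31 to 60: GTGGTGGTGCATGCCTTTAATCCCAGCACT
The final 15 bases of that run, TTTAATCCCAGCACT, were found on 7 probes of other genes in all and in the promoter windows of 11 of 27025 genes. Counted over any run of 15 bases, as for the 4 probes above, the Csf3r probe shared a run with 15 probes of other genes. On that count it also shared a run with the promoter windows of 29 other genes. Over the 12 arrays the signals of the Csf3r and Gm13241 probes correlated at 0.972, a description with no test. Gm13241 changed by -0.09 with BDL in WT and by -0.41 in FSAP-deficient livers on the log2 scale, beside -0.14 and -0.42 for Csf3r. The Csf3r probe was brighter than 96.3% of all probes. Its values are given below as the signal of that probe, and how much of it came from Csf3r RNA was not tested.

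Camp had 2 probes that overlap by 50 bases, and they are shown for 30 of these because they differ within them. Capitals mark the differing bases, counted from 1 at the first base shown, and the substitutions from the brighter to the dimmer probe are A6G and T10C.
Camp brighter probe: cagccAgagTagtaggcctgccttggcctg
Camp dimmer probe: cagccGgagCagtaggcctgccttggcctg
The brighter probe was used. Mean changes with BDL in WT were 0.03 on the brighter and -0.10 on the dimmer probe, and 0.35 and 0.02 in FSAP-deficient livers, so the choice of probe moved Camp by less than the spread between mice. Mpo also had 2 probes, and its dimmer one changed by 0.94 in WT and 1.04 in FSAP-deficient livers, beside 1.05 and 1.97 on the one used.

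Between 54.5% and 62.3% of spots on an array were well above background, with a 75th percentile of the signal between 475 and 1202. Levels below are log2 signal minus the array's 75th percentile on that scale, so a level of 0 equals that percentile, and levels of different genes are not compared because probes differ in brightness. Habp2 lay between 4.97 and 5.50 on the 6 WT arrays and between -7.18 and -3.45 on the 6 FSAP-deficient arrays, where it was well above background on 1. RNA of Y-linked genes was detected on 3 arrays, replicate 1 of FSAP-deficient sham and replicates 1 and 2 of FSAP-deficient BDL, and with that signal as a covariate the same number of the 10 genes passed in each comparison. Replicate 1 of FSAP-deficient sham was alone on its slide, as read from the name of its scan. Its file gives values to 3 significant digits and names probes only by identifier. The hepatocyte markers Alb and Serpina1a were well above background on all 12 arrays.

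BDL raised 4 of the 10 genes in WT livers and 5 of 10 in FSAP-deficient livers. Prtn3, Retnlg, S100a8 and S100a9 passed in both genotypes, and Ltf passed in FSAP-deficient livers. In WT livers 32.8% of all tested genes passed, 15.2% as higher and 17.6% as lower. In FSAP-deficient livers 39% passed, 16.2% as higher and 22.8% as lower. Passing means an adjusted p under 0.05 from limma, with Benjamini-Hochberg adjustment over all 19556 genes. The plot of the 10 genes by array shows every value.

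**Figure D1:**
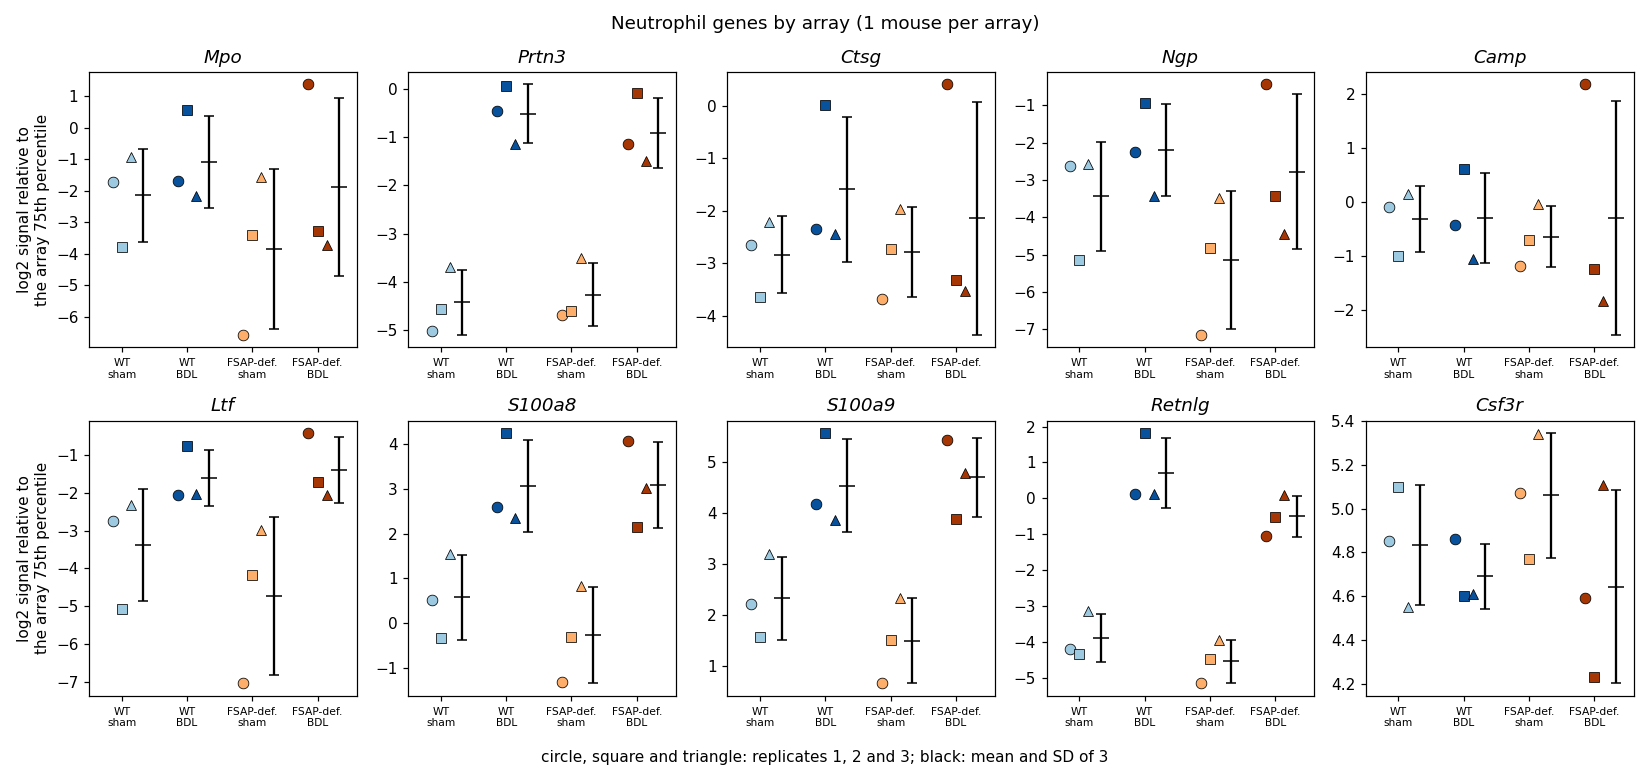
Log2 signal relative to the 75th percentile of each array (y axis, a separate range per gene) for 10 neutrophil genes in 4 groups of 3 mice; circles, squares and triangles are replicates 1, 2 and 3, and black marks give the mean and SD. Prtn3 and Retnlg separate BDL from sham on every array, whereas Mpo, Ctsg, Ngp and Camp are high after BDL mainly on replicate 2 of WT BDL and replicate 1 of FSAP-deficient BDL.

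Among the azurophil granule genes, Prtn3 encodes proteinase 3, a serine protease of the neutrophil. Prtn3 stood at -5.01, -4.57 and -3.69 in WT sham livers and at -0.45, 0.06 and -1.15 in WT BDL livers. In FSAP-deficient livers it stood at -4.68, -4.60 and -3.51 after sham surgery and at -1.14, -0.09 and -1.49 after BDL. All 6 BDL arrays lay above all 6 sham arrays. The rise was 3.91 (SE 0.48, n = 3 against 3, limma adjusted p = 0.000199), or 15.1-fold, in WT and 3.36 (SE 0.48, limma adjusted p = 0.000408), or 10.2-fold, in FSAP-deficient livers. The probe was well above background on 11 of 12 arrays.

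Mpo encodes myeloperoxidase, which makes hypochlorous acid. Its levels were -1.73, -3.78 and -0.93 in WT sham livers and -1.69, 0.56 and -2.16 in WT BDL livers. In FSAP-deficient livers they were -6.56, -3.41 and -1.57 after sham surgery and 1.37, -3.28 and -3.73 after BDL. Sham and BDL arrays overlapped in both genotypes, since 1 BDL mouse in each genotype stood above all sham mice and the others did not. The differences of 1.05 (SE 1.53, limma adjusted p = 0.64) and 1.97 (SE 1.53, limma adjusted p = 0.338) were within the spread between mice. On replicate 1 of FSAP-deficient sham Mpo was not well above background.

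Ctsg encodes cathepsin G, another serine protease of the same granules. Its levels were -2.65, -3.65 and -2.21 in WT sham livers and -2.35, 0.01 and -2.44 in WT BDL livers. They were -3.68, -2.72 and -1.96 in FSAP-deficient sham livers and 0.41, -3.32 and -3.53 after BDL. As with Mpo, replicate 2 of WT BDL and replicate 1 of FSAP-deficient BDL were the highest arrays and the groups overlapped. Neither difference passed, at 1.25 (SE 1.01, limma adjusted p = 0.378) in WT and 0.64 (SE 1.01, limma adjusted p = 0.651) in FSAP-deficient livers.

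Of the specific granule genes, Ltf encodes lactoferrin, an iron-binding protein. Ltf stood at -2.76, -5.06 and -2.33 in WT sham and at -2.06, -0.76 and -2.03 in WT BDL livers. It stood at -7.03, -4.18 and -2.98 in FSAP-deficient sham and at -0.43, -1.73 and -2.07 in FSAP-deficient BDL livers. Every BDL array lay above every sham array of its genotype, as held for 52.1% of tested genes in WT in either direction and for 24.2% as higher, and for 47.3% and 18.9% in FSAP-deficient livers. The difference passed in FSAP-deficient livers, at 3.32 (SE 0.99, limma adjusted p = 0.0222), and missed in WT, at 1.76 (SE 0.99, limma adjusted p = 0.201). The interaction term, 1.55 (SE 1.40, limma adjusted p = 0.673), did not pass, so the genotypes were not shown to differ. Without replicate 1 of FSAP-deficient sham, where Ltf was lowest and not well above background, the rise was 2.17 with an adjusted p of 0.0653, and without replicate 1 of FSAP-deficient BDL it was 2.83 with an adjusted p of 0.0758. With array weights it was 2.67 with an adjusted p of 0.0614.

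Ngp, neutrophilic granule protein, had levels of -2.62, -5.14 and -2.57 in WT sham livers and -2.24, -0.95 and -3.42 in WT BDL livers. They were -7.15, -4.83 and -3.48 in FSAP-deficient sham livers and -0.44, -3.44 and -4.45 after BDL. The groups overlapped in both genotypes, and the probe was well above background on 9 of 12 arrays and on 1 of 3 in FSAP-deficient sham livers. The differences were 1.24 (SE 1.20, limma adjusted p = 0.465) and 2.38 (SE 1.20, limma adjusted p = 0.142).

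Camp encodes the cathelicidin precursor, an antimicrobial peptide. Its levels were -0.08, -1.0 and 0.15 in WT sham, -0.42, 0.61 and -1.04 in WT BDL, -1.17, -0.70 and -0.04 in FSAP-deficient sham and 2.18, -1.23 and -1.82 in FSAP-deficient BDL livers. After BDL, FSAP-deficient livers held both the highest and the lowest value of the 12 arrays. The differences of 0.03 (SE 0.88, limma adjusted p = 0.983) and 0.35 (SE 0.88, limma adjusted p = 0.782) changed sign under several settings.

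S100a8 and S100a9 encode the subunits of calprotectin, which binds zinc and calcium and makes up much of the neutrophil's cytosolic protein. S100a8 stood at 0.52, -0.34 and 1.55 in WT sham and at 2.59, 4.24 and 2.35 in WT BDL livers, and at -1.32, -0.31 and 0.84 and then 4.06, 2.14 and 3.02 in FSAP-deficient livers. S100a9 stood at 2.21, 1.58 and 3.19 in WT sham and at 4.18, 5.57 and 3.86 in WT BDL livers, and at 0.66, 1.51 and 2.33 and then 5.43, 3.89 and 4.78 in FSAP-deficient livers. For both genes all 6 BDL arrays lay above all 6 sham arrays. S100a8 rose by 2.48 (SE 0.72, limma adjusted p = 0.0221), 5.59-fold, in WT and by 3.34 (SE 0.72, limma adjusted p = 0.00429), 10.1-fold, in FSAP-deficient livers. S100a9 rose by 2.21 (SE 0.60, limma adjusted p = 0.0163), 4.63-fold, and by 3.20 (SE 0.60, limma adjusted p = 0.00194), 9.20-fold. The WT calls of both depended on single mice. Without replicate 2 of WT BDL the changes were 1.89 for S100a8 and 1.69 for S100a9, with adjusted p of 0.0865 and 0.0648, and without replicate 2 of WT sham they were 2.03 and 1.84, with adjusted p of 0.0861 and 0.0662. Without replicate 1 of WT sham S100a8 was at 2.46 with an adjusted p of 0.0594.

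Retnlg encodes resistin-like gamma, a secreted protein made by mature mouse neutrophils. It stood at -4.21, -4.33 and -3.13 in WT sham and at 0.13, 1.82 and 0.13 in WT BDL livers. In FSAP-deficient livers it stood at -5.16, -4.49 and -3.96 after sham surgery and at -1.06, -0.52 and 0.08 after BDL. Sham and BDL arrays did not overlap, and Retnlg had the largest change of the 10 genes in both genotypes. The rise was 4.59 (SE 0.52, limma adjusted p = 0.000121), 24.0-fold, in WT and 4.04 (SE 0.52, limma adjusted p = 0.000219), 16.5-fold, in FSAP-deficient livers. Signals in sham livers, from 15.1 to 71.27 before scaling, were dim, which limits these folds.

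Csf3r encodes the receptor for granulocyte colony-stimulating factor. Its probe, with the shared sequence printed above, lay between 4.23 and 5.34 on all 12 arrays and its groups overlapped. The differences were -0.14 (SE 0.24, limma adjusted p = 0.686) and -0.42 (SE 0.24, limma adjusted p = 0.197). The WT difference turned positive, to 0.11, under quantile normalization. Without replicate 3 of FSAP-deficient BDL the FSAP-deficient difference was -0.65 and passed, with a limma adjusted p of 0.049.

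**Figure D2:**
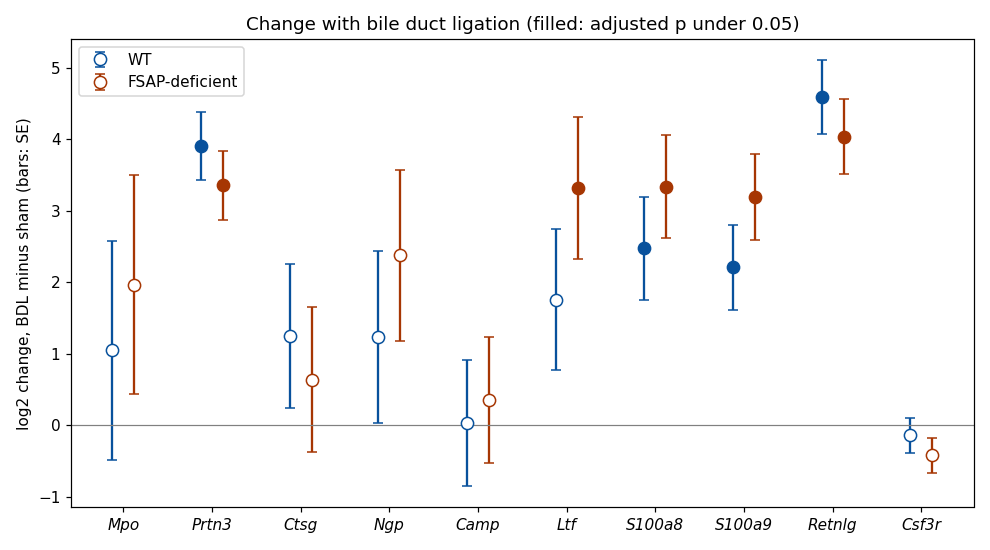
Log2 change with BDL (y axis, BDL minus sham, bars are the SE of the limma model) for 10 neutrophil genes in WT and FSAP-deficient livers, 3 arrays per group; filled points passed at an adjusted p under 0.05. Prtn3 and Retnlg have the largest changes, 3.91 and 4.59 in WT, and the SE of 1.53 for Mpo is the widest.

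Slide was read from the names of the deposited scans. By these names the arrays were on 4 slides that partly followed the groups. Slide 1 held the 3 WT sham arrays and replicate 1 of WT BDL, and slide 3 held replicate 3 of FSAP-deficient sham and the 3 FSAP-deficient BDL arrays. Within slide 1 the difference between WT BDL and sham was 3.98 for Prtn3, 4.03 for Retnlg, 2.01 for S100a8, 1.85 for S100a9 and 1.32 for Ltf. Within slide 3 the FSAP-deficient difference was 2.61 for Prtn3, 3.47 for Retnlg, 2.23 for S100a8, 2.37 for S100a9 and 1.57 for Ltf. The direction of these 5 genes was thus the same within a slide, while Mpo was at 0.46 on slide 1 and -0.31 on slide 3. With slide as a fixed block, Prtn3 and Retnlg passed in both genotypes and were the only 2 of the 10 to do so, with adjusted p of 0.0107 and 0.0119 in WT and 0.037 and 0.0163 in FSAP-deficient livers. With slide as a random block the counts stayed at 4 and 5.

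The rule set Mpo, Prtn3 and Ctsg, called immature here, against the other 7 genes, called mature. Averaged over genes and set to 0 in WT sham livers, the immature mean was 2.07 ± 1.13 (SD, n = 3) in WT BDL, -0.50 ± 1.32 in FSAP-deficient sham and 1.49 ± 1.64 in FSAP-deficient BDL livers. The mature mean was 1.74 ± 0.79, -0.78 ± 1.01 and 1.54 ± 0.86 in the same groups. Immature minus mature was -0.17, -0.02 and 0.19 in WT sham and 0.16, 0.72 and 0.11 in WT BDL livers. It was -0.01, 0.27 and 0.60 in FSAP-deficient sham and 0.83, -0.04 and -0.92 in FSAP-deficient BDL livers. The contrast moved with BDL by 0.33 in WT and by -0.33 in FSAP-deficient livers, and between genotypes by 0.28 in sham and -0.37 after BDL. Within groups its SD ran from 0.18 in WT sham to 0.88 in FSAP-deficient BDL livers. As the members were chosen with results known, no test is given for it. These values changed with the choice of mature genes. With Ngp, Camp and Ltf in place of the 7, the BDL shift was 1.06 in WT and -0.03 in FSAP-deficient livers. The 7 include the Csf3r probe, with its shared sequence. Without it, a setting chosen after seeing the data, the BDL shift was 0.02 in WT and -0.78 in FSAP-deficient livers, and the genotype shift was 0.45 in sham livers and -0.35 after BDL.

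**Figure D3:**
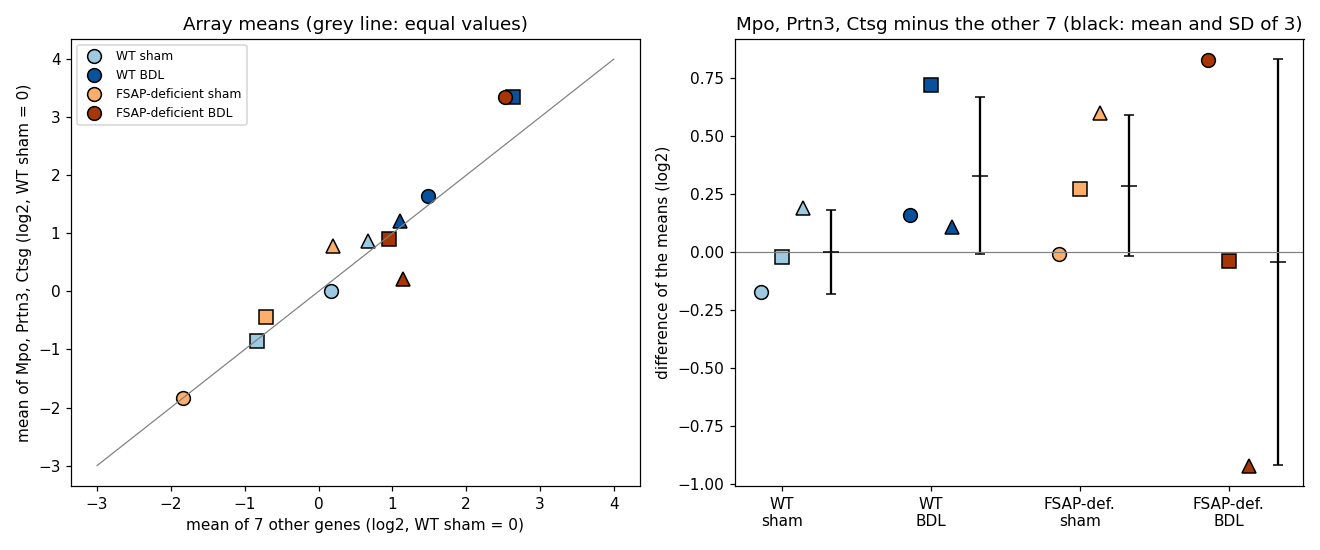
Left, mean log2 level of Mpo, Prtn3 and Ctsg against the mean of the other 7 genes on each of 12 arrays, both set to 0 in WT sham livers; right, their difference by group with mean and SD of 3 mice. Most arrays lie near the line of equal values, and the FSAP-deficient BDL mice spread from -0.92 to 0.83.

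The immature mean joins genes that did not behave alike. In both genotypes Prtn3 passed and Mpo and Ctsg did not, although a difference between their changes was not tested. The same division ran through the mature set, where S100a8, S100a9 and Retnlg passed in both genotypes, Ltf passed in FSAP-deficient livers, and Ngp, Camp and Csf3r did not pass. For Prtn3, Retnlg, S100a8, S100a9 and Ltf all 6 BDL arrays lay above all 6 sham arrays. Within a genotype, BDL arrays lay above sham arrays for 24.2% of all tested genes in WT and 18.9% in FSAP-deficient livers. The share over both genotypes together was not counted. Mpo, Ctsg, Ngp and Camp stood above all sham arrays in 2 or 3 of the 6 BDL livers, and the Csf3r probe in 0 of 6.

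**Figure D4:**
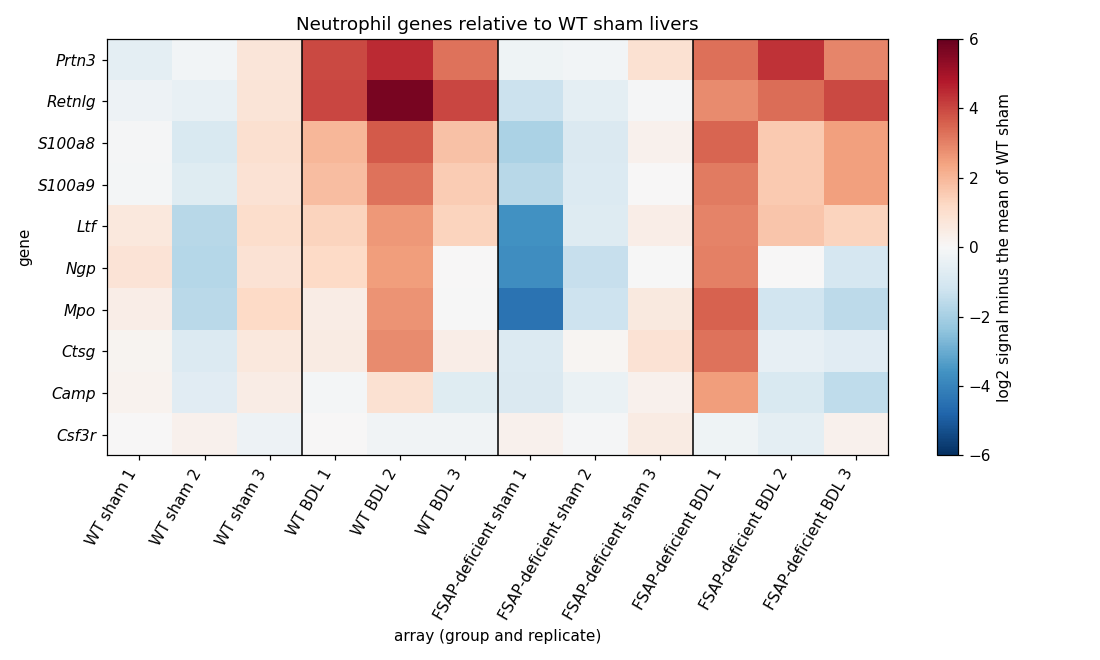
Log2 signal of 10 neutrophil genes (rows) on 12 arrays (columns, by group and replicate) minus the mean of WT sham livers; red is higher and blue lower. The upper 5 rows are red on all 6 BDL arrays, while Mpo, Ctsg and Camp are red on replicate 1 of FSAP-deficient BDL and near 0 or blue on replicates 2 and 3.

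Mouse-to-mouse variation within groups was shared by several members. After subtraction of group means, Mpo correlated over the 12 arrays with Ngp at 0.98 and with Ctsg at 0.94, and Ctsg with Camp at 0.97. S100a8 correlated with S100a9 at 1.00. Prtn3 correlated with Mpo at 0.38 and with Ctsg at 0.28, lower than with Retnlg at 0.58. These are descriptions over 12 arrays that share slides and scaling, and the largest deviations of Mpo were on replicate 1 of FSAP-deficient sham and replicate 1 of FSAP-deficient BDL. Without replicate 2 of WT BDL and replicate 1 of FSAP-deficient BDL together, a setting chosen after seeing the data, 2 of the 10 genes passed in WT and 4 in FSAP-deficient livers.

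**Figure D5:**
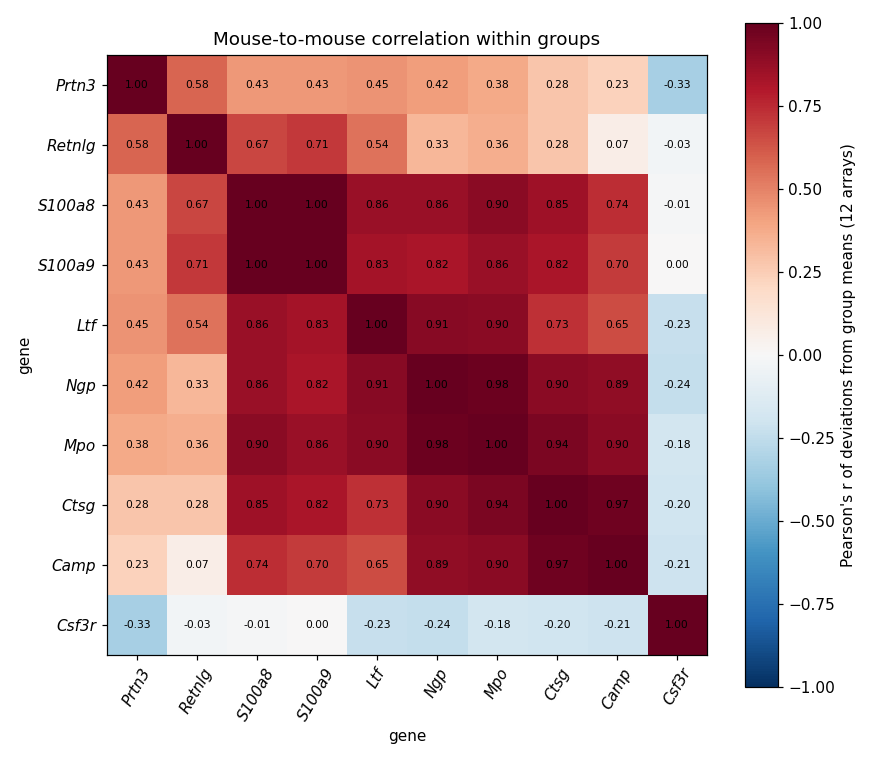
Pearson's r between the deviations of 10 neutrophil genes from their group means over 12 arrays (color scale from -1 to 1; both axes list the genes). Mpo, Ngp, Ctsg, Camp, Ltf, S100a8 and S100a9 form a block of values between 0.65 and 1.00, while Prtn3 reaches at most 0.58.

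The proliferation markers varied between the same livers. Relative to WT sham, the mean of 14 such genes was -0.29, 3.47 and 0.75 on the WT BDL arrays and 2.38, 2.85 and 2.56 on the FSAP-deficient BDL arrays. Replicate 2 of WT BDL, the WT liver highest for all members but Csf3r, was thus also the highest for these genes. Among FSAP-deficient BDL livers replicate 1 was the lowest of 3. Their part in the results was not tested.

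Genotype made no difference that passed for any of the 10 genes. FSAP-deficient and WT livers differed in 0 of 10 genes after sham surgery, where 0.0153% of all genes passed, in 0 of 10 after BDL, where 0.215% passed, and in 0 of 10 for the interaction of genotype and BDL, where 0.0102% passed by limma. At an unadjusted p under 0.05 the count over these 30 tests was 1. Retnlg after BDL was that one, at 0.13, 1.82 and 0.13 in WT and -1.06, -0.52 and 0.08 in FSAP-deficient livers. Every FSAP-deficient mouse lay below every WT mouse, as in 9.05% of tested genes, and the difference was -1.19 (SE 0.52, limma adjusted p = 0.372). WT BDL and FSAP-deficient BDL arrays shared no slide, so slide and genotype could be separated for this value only through the other groups.

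In sham livers the genotype differences of Mpo, Ngp and Ltf were -1.70 (SE 1.53), -1.71 (SE 1.20) and -1.35 (SE 0.99). Replicate 1 of FSAP-deficient sham lay below every other array for the 3 genes, and without it the differences were -0.35, -0.71 and -0.19. S100a8 and S100a9 differed by -0.84 (SE 0.72) and -0.82 (SE 0.60) in sham livers and by 0.01 and 0.17 after BDL. Prtn3 differed by 0.16 (SE 0.48) in sham livers and by -0.40 (SE 0.48) after BDL. The sham and BDL groups enter both the surgery and the genotype comparisons, so these values are not independent of those above.

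Other genes of the same granules, from lists that leave out the 10, moved unevenly. List counts here and below stand beside all tested genes, of which 15.2% rose and 17.6% fell in WT. In FSAP-deficient livers 16.2% rose and 22.8% fell. Of 15 further specific and gelatinase granule genes, 14 rose and 0 fell in WT, and 12 rose and 0 fell in FSAP-deficient livers. Their median changes were 2.21 and 3.04, beside -0.03 and -0.16 over all tested genes. From the same list, Olfm4 and Mmp25 were well above background on 0 of 12 arrays and Cd177 and Fcnb on 1 each. These genes were not tested, so the counts do not cover them. Lcn2, an iron-siderophore binding protein that hepatocytes also make, rose by 6.07 (SE 0.71, limma adjusted p = 0.000146) in WT and by 5.0 (SE 0.71, limma adjusted p = 0.000388) in FSAP-deficient livers. Chil3, a chitinase-like protein of neutrophils and macrophages, rose by 5.27 and 5.64. Slpi, a protease inhibitor, rose by 4.15 and 4.48, and Adam8, a membrane metalloprotease, by 3.68 and 4.93. On these 15 genes the mean above WT sham was 2.21 on replicate 1 of FSAP-deficient BDL and 2.47 and 3.20 on replicates 2 and 3. That order differs from the order of Mpo, Ctsg, Ngp and Camp, which were highest on replicate 1.

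Of the 7 other tested genes of the azurophil list, 1 rose and 1 fell in WT, and 1 rose and 0 fell in FSAP-deficient livers, beside 32.8% and 39% of all tested genes called. The median changes were -0.22 and -0.11, beside -0.03 and -0.16 over all tested genes. The gene that rose in both was Cd63, a tetraspanin found on granules and on lysosomes of many cells, by 3.64 (SE 0.27, limma adjusted p = 1.25e-05) and 3.78 (SE 0.27, limma adjusted p = 1.02e-05). Serpinb1a, an inhibitor of neutrophil serine proteases, fell in WT by 2.54 (SE 0.87, limma adjusted p = 0.0442) and was at -0.13 (SE 0.87, limma adjusted p = 0.917) in FSAP-deficient livers. Elane, neutrophil elastase and the neighbour of Prtn3 in the genome, was at -0.22 (SE 0.19, limma adjusted p = 0.417) and -0.31 (SE 0.19, limma adjusted p = 0.24), on a single probe well above background on all 12 arrays. That probe holds short tandem repeats, starting at 11 positions, and shares a run of 15 bases with 1 probe of another gene. How much of its signal came from Elane RNA was not tested. Bpi, which permeabilizes bacteria, was well above background on 0 of 12 arrays.

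Mature neutrophil genes outside the 10 mostly rose. Of 16 cytosolic or secreted products, 12 rose and 2 fell in WT and 13 rose and 2 fell in FSAP-deficient livers. Stfa1, Stfa3, Asprv1 and Alox5 were well above background on no sham array, so they could pass only as higher. Cstdc5 and Stfa1, of the stefin A family of cathepsin inhibitors, rose by 4.18 and 4.23 in WT and by 5.19 and 4.32 in FSAP-deficient livers. These genes have near-identical relatives that a probe may not tell apart. Stfa1 was not well above background in WT sham livers, so the change there is also given as at least 5.12-fold, the BDL mean against the lowest signal well above background. G0s2, an inhibitor of lipolysis that is also strong in hepatocytes, fell by 3.47 (SE 0.34, limma adjusted p = 5.42e-05) in WT and by 1.90 (SE 0.34, limma adjusted p = 0.00155) in FSAP-deficient livers. Of 17 other surface receptors, 13 rose in WT and 15 in FSAP-deficient livers, and 0 fell in either. Cxcr2, Clec4e, Il1r2, Fpr3 and Trem3 among them were well above background on no sham array. They entered the count through BDL arrays and could pass only as higher. Il1r2, the decoy receptor for interleukin-1, was at least 6.12-fold higher in WT and at least 4.91-fold higher in FSAP-deficient livers, and Clec4e, a receptor for glycolipids, at least 3.20-fold and 5.84-fold. Cxcr2, the receptor for neutrophil chemokines, was at least 3.11-fold higher in WT and at least 3.49-fold higher in FSAP-deficient livers. The Trem1 probe, which like that of Itgam in the granule list holds a simple repeat, was at -0.07 in both genotypes.

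Among growth factors and chemoattractants, 3 of 7 rose in WT and 5 of 7 in FSAP-deficient livers, with 0 falling. Cxcl5, Il6 and Cxcl2 were well above background on no sham array, so they could pass only as higher. Cxcl5, a chemokine that draws neutrophils, was at least 7.75-fold higher in WT and at least 29.7-fold higher in FSAP-deficient livers. Cxcl1, a chemokine of the same receptor, rose by 2.38 (SE 0.39, limma adjusted p = 0.00113) and 2.84 (SE 0.39, limma adjusted p = 0.000315). Csf3, the ligand of Csf3r, was well above background on 0 of 12 arrays. Of 9 transcription factors of granulocytes, 5 rose and 1 fell in WT and 6 rose and 1 fell in FSAP-deficient livers. The same limit holds for Spi1, Runx1 and Klf5, which were well above background on no sham array. Cebpe, which drives specific granule genes, was at least 3.34-fold higher in FSAP-deficient livers (limma adjusted p = 0.00554) and at 2.12 (SE 0.79, limma adjusted p = 0.0634) in WT. Cebpa, which is also a hepatocyte factor, fell by 1.86 (SE 0.28, limma adjusted p = 0.000671) in WT and by 1.41 (SE 0.28, limma adjusted p = 0.00276) in FSAP-deficient livers.

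Markers of other cells moved in the same livers, where 15.2% of all tested genes rose and 17.6% fell in WT. In FSAP-deficient livers 16.2% rose and 22.8% fell. Of 19 monocyte and macrophage genes, 14 rose and 2 fell in WT and 16 rose and 1 fell in FSAP-deficient livers, and their mean above WT sham ran from 1.15 to 1.27 in WT BDL and from 1.66 to 1.86 in FSAP-deficient BDL livers. These cells also express several genes of the neutrophil lists, Chil3 and S100a8 among them. Of 11 bile duct genes, 8 rose and 1 fell in each genotype. Elf3 among them was well above background on no sham array, so it could pass only as higher. Of 13 hepatocyte genes, 0 rose and 2 fell in WT, and 0 rose and 8 fell in FSAP-deficient livers. Their part in the rises of the neutrophil genes was not tested.

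Of 11 blood stem and progenitor genes, 3 rose and 1 fell in WT and 4 rose and 0 fell in FSAP-deficient livers. Of all tested genes, 15.2% rose and 17.6% fell in WT, and 16.2% rose and 22.8% fell in FSAP-deficient livers. On replicate 1 of FSAP-deficient BDL, where Mpo, Ctsg, Ngp and Camp were highest, the mean of these 11 genes was 0.85. It was 0.43 and 0.56 on replicates 2 and 3 of that group. On replicate 2 of WT BDL it was -0.01, beside -0.05 and -0.06. Of 10 erythroid genes, 0 rose and 2 fell in WT and 1 rose and 2 fell in FSAP-deficient livers. These falls were near the share of all tested genes that fell. The mast cell and eosinophil genes Cpa3, Mcpt4, Cma1, Epx and Ms4a2 were well above background on 0 of 12 arrays, and 6 genes of that list were tested. Of these, 3 rose and 0 fell in WT, and 3 rose and 2 fell in FSAP-deficient livers. Ear1 and Ear2, ribonucleases of eosinophils and macrophages, rose by 2.56 and 2.38 in WT and by 2.71 and 2.64 in FSAP-deficient livers. There Ear6, of the same family, fell by 1.08, and Tpsb2, a mast cell tryptase, fell by 0.57.

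T and NK genes gave 1 rise and 6 falls of 10 in WT and 4 rises and 1 fall in FSAP-deficient livers. B cell genes gave 0 rises and 3 falls of 5 in WT and 0 rises and 1 fall in FSAP-deficient livers. Of all tested genes, 15.2% rose and 17.6% fell in WT, and 16.2% rose and 22.8% fell in FSAP-deficient livers.

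The genes whose pattern over the 12 arrays was most like the members were found by Pearson's correlation among 15888 named tested genes. Treml1, a receptor of platelets and megakaryocytes, came first for both the immature mean, at 0.949, and the mature mean, at 0.945. It did not pass with BDL, at 0.88 in WT and 1.16 in FSAP-deficient livers. The next for the immature mean were Slc35f5 at 0.928, Mas1 at 0.904, Ermp1 at 0.900 and Zfp54 at 0.895. For the mature mean they were Gm6985 at 0.909, Mlkl, an executor of necroptosis, at 0.897, Ly6d at 0.890 and Ppbp, the platelet basic protein, at 0.888. These values are descriptions over arrays that share groups.

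Of the neighbouring genes within 100 kb of a member's probe, some rose with the member and others fell or did not pass. Beside Prtn3 on chromosome 10, the Elane probe was flat. Plppr3, a phospholipid phosphatase-related protein, rose by 2.31 (limma adjusted p = 0.0008) and 3.30 (limma adjusted p = 8.42e-05). Its probe holds short tandem repeats, starting at 8 positions, and shares a run of 15 bases with 1 probe of another gene. A dimmer Plppr3 probe had a mean level of -6.83, beside -4.16 for the one used. How much of the signal came from Plppr3 RNA was not tested. Fstl3 rose by 3.96 and 4.38, Misp by 1.58 and 3.47 and Arid3a by 1.75 and 1.71. Kiss1r fell by 0.77 and 0.73, and several other neighbours of Prtn3 did not pass in either genotype. Beside Mpo on chromosome 11, Lpo, encoding lactoperoxidase, fell by 1.05 and 1.00. In the S100 cluster on chromosome 3, S100a6 rose by 2.92 and 3.97 and S100a4 by 1.23 and 2.48, and S100a8 and S100a9 also rose. S100a5 rose by 2.12 in WT and was at 0.70 (limma adjusted p = 0.0536) in FSAP-deficient livers. S100a3, at -0.03 and -0.51, and S100a2, at 0.27 and -0.42, did not pass. Beside Camp on chromosome 9, the cell cycle phosphatase gene Cdc25a rose by 2.11 and 1.15.

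Promoter sequences of all 10 genes were matched by symbol in RefSeq on GRCm38.p6, a later build than that of the probes. Those of 3 genes are shown because Prtn3 and Ltf passed in at least 1 genotype and Ngp shares the motif of Ltf, with motif matches in capitals. The 250 bases before each gene's start were searched on both strands for TTGCNNAA, a core of C/EBP sites, GAGGAAG, a core of PU.1 sites, and TGTGGT, a core of RUNX sites.
Prtn3, chr10:79879547-79879666, plus strand: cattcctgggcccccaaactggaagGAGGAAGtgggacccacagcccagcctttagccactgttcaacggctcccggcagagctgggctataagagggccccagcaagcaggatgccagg
Ngp, chr9:110419658-110419807, plus strand: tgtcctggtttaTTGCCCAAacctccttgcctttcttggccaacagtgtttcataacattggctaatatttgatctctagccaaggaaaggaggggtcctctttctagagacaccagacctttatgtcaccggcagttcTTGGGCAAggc
Ltf, chr9:111019172-111019291, plus strand: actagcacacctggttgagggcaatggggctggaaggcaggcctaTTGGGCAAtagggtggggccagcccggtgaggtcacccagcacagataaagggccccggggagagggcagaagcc
The C/EBP letters were found in Ngp, with 2 matches, and in Ltf, S100a9 and Retnlg, beside 10.8% of 27025 genes. The PU.1 letters were found in Mpo, with 2 matches, and in Prtn3, Ctsg, S100a8 and Csf3r, beside 12.0%. The RUNX letters were found in Ctsg and S100a9, beside 15.9%. The 3 azurophil genes thus shared the PU.1 letters with S100a8 and Csf3r. The part of these letters in the changes with BDL was not tested. Such matches describe the letters in this window.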

How the data were processed

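The deposited scanner files hold linear spot intensity per array. Agilent Feature Extraction 10.5.1.1 wrote them, per the file headers, and the processed signal is background-subtracted. The deposited series table holds the authors' log2 values of these arrays, with normalization not given in the sources used here, and served as an alternative. Each array's 75th percentile was subtracted from the log2 processed signal, outlier spots were left out (79 values of tested genes), and the brightest probe stood for a gene. Genes whose deposited marks put them above background on 3 or more of 12 arrays were fitted with limma 3.58.1 in R 4.3.3 across all genes (4 group means, 8 residual and 2.69 prior degrees of freedom), with two-sided moderated tests and Benjamini-Hochberg adjustment at 0.05. The procedure was tested on simulated data. "Rose" and "fell" stand for genes that passed. Errors are model SEs, and 3 mice per group limit the precision. An "at least" fold is used where no array of the lower group measured a gene above background. It sets the mean of the higher group against a floor averaged over the lower group, taken on each array as the larger of the gene's signal and the dimmest signal well above background.

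Probes were named through RefSeq accessions, which matched for 26412 of 39429 probes. The 10 members and all lists were chosen with earlier results of these data known. Named were all 10 members, up to 4 genes per list with the largest change among those that passed, and the 5 genes most like each mean. Only part of the neighbours within 100 kb was named. Of those not described above, Oscp1 beside Csf3r rose in both genotypes, and Rnf43 beside Mpo and Scap beside Ngp fell in both. Other genes were named after their values were seen: Elane, Bpi, Csf3, Ear6, Tpsb2, Trem1, Itgam, Gm13241, Cd177, Fcnb and the markers not above background.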

Additional observations from a re-analysis of the deposited data

How the results depend on the processing

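The 3 mice per group and 1 shared estimate of spread limit the precision. Signal near background limits Ngp, Ltf, Mpo and Prtn3 in sham livers. Retnlg was well above background on all 12 arrays but was also dim in sham livers. Of 1310 values of single members under alternatives, 1219 kept direction and side of the threshold, 70 turned direction, 16 lost and 1 gained a pass, and 4 moved. None of the 70 was of a change that had passed, and causes were not tested. Prtn3 and Retnlg passed with BDL under all tested alternatives in both genotypes. The number of the 10 that passed fell to 2 in both genotypes with slide as a fixed block, and in WT to 2 without the 2 arrays highest for most granule genes (replicate 2 of WT BDL and replicate 1 of FSAP-deficient BDL, chosen after the values were seen). Leaving out each array in turn gave 2 to 4 in WT. No member passed between genotypes or for the interaction under any alternative run.

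The replicate numbers were not treated as pairs. Deviations of arrays with the same number in other groups correlated between -0.20 and 0.19 (median 0.01, 18 pairs). For other numbers they correlated between -0.21 and 0.22 (median -0.01, 36 pairs). Such values cannot show whether the mice were paired by design. With replicate block, 4 members passed in WT and 5 in FSAP-deficient livers, as without it, and the counts over all genes went from 42 to 11 for genotype after BDL and from 2 to 0 for the interaction.

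Over all genes, the counts ran over the alternatives from 2 to 140 beside 42 for genotype after BDL, from 1 to 154 beside 3 for genotype in sham livers, and from 0 to 368 beside 2 for the interaction. The 140 came under normexp, the 154 with array weights and the 368 with Y-linked signal as a covariate. With slide as a fixed block the counts were 3292 beside 6420 for BDL in WT and 4154 beside 7634 in FSAP-deficient livers. Median scaling moved the median change of all genes with BDL from -0.03 to -0.19 in WT and from -0.16 to -0.36 in FSAP-deficient livers.

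Immature minus mature with BDL in WT was -0.03 under normexp, 1.06 with Ngp, Camp and Ltf as the mature genes, and 0.02 with Csf3r left out of them (added after the values were seen). Between genotypes in sham livers it was 0.63 with those 3 and 0.02 with slide as a fixed block.

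The values that turned direction were these. With slide as a fixed block, the BDL change was -0.11 for Camp and 0.03 for Csf3r in WT, and -0.31 for Mpo, -0.19 for Ctsg and -0.25 for Camp in FSAP-deficient livers. The genotype difference was then -0.08 for Prtn3 and -1.01 for Ctsg in sham livers and -1.22 for Ltf, -1.37 for S100a8 and -0.83 for S100a9 after BDL, and the interaction -0.76 for Mpo, -0.50 for Ngp and -0.15 for Camp. Without the 2 arrays named above, Camp was at -0.42 in WT, Ctsg at -0.64 and Camp at -0.89 in FSAP-deficient livers, Prtn3 at 0.01 between genotypes after BDL, and the interaction at -0.47 for Camp and 0.30 for Retnlg. Camp in WT was -0.03 under normexp, -0.12 under median scaling and -0.04 as a mean of all probes. Csf3r was 0.11 with BDL in WT and 0.09 between genotypes after BDL under quantile normalization and in the authors' table. Between genotypes after BDL, Camp was 0.15 under normexp and 0.48 with array weights, S100a8 was -0.09 under median scaling and -0.06 with slide as a random block or array weights, and Csf3r was 0.18 with the Y-linked covariate. Ctsg in sham livers was -0.02 with slide as a random block and -0.07 with that covariate.

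Leaving out each array in turn gave, for BDL, -0.42 to 0.41 for Camp in WT, and -0.64 to 1.33 for Ctsg and -0.89 to 1.11 for Camp in FSAP-deficient livers. For genotype in sham livers it gave -0.22 to 0.53 for Prtn3 and -0.36 to 0.50 for Ctsg. For genotype after BDL it gave -2.41 to 0.14 for Mpo, -1.83 to 0.25 for Ctsg, -1.74 to 0.27 for Ngp, -1.24 to 0.76 for Camp, -0.28 to 0.64 for Ltf, -0.48 to 0.61 for S100a8, -0.20 to 0.68 for S100a9 and -0.28 to 0.16 for Csf3r. For the interaction it gave -0.70 to 2.06 for Mpo, -1.88 to 0.20 for Ctsg, -0.03 to 1.99 for Ngp, -0.92 to 1.08 for Camp and -0.93 to 0.02 for Retnlg.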
